A study of Mus musculus with 8 samples.

Results

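The S100 calcium-binding proteins were followed in mouse mammary epithelial cells that carried a mutant or a wild-type form of the adaptor ShcA. The members were 13 array probes of 10 genes (S100a1, S100a4, S100a6, S100a8, S100a9, S100a10, S100a11, S100a13, S100a14 and S100a16), out of 39429 probes in all, taken as every probe other than a control whose gene name in the scanner files was one of these. The R175Q group was 4 samples of NMuMG-NT2197 cells, a derivative of the NMuMG mammary line, with the pMSCV/hygro vector carrying ShcA R175Q, in which glutamine replaces arginine at residue 175. The wild-type group was 4 samples of the same cells with that vector carrying wild-type ShcA, so both groups carried a ShcA cDNA in this vector. The labels speak of cultured cells in one place and of microdissected material in another, and nothing in them says that the replicates came from separate cultures, so p-values cover the spread among these 8 samples, which may be technical. Each sample was labelled with Cy3 and hybridised beside a common reference RNA in Cy5, which the labels call mouse in one field and human in another.

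S100 proteins are small proteins built around paired EF-hands, helix-loop-helix motifs whose loop holds calcium. Most act as dimers, and on binding calcium they expose a surface that grips partner proteins such as annexins, myosin heavy chains and membrane receptors. Most of the genes lie side by side on mouse chromosome 3, and in mammary epithelium several are studied for their parts in motility, secretion and inflammation.

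All values are log2 of Cy3 over Cy5, so a difference of 1 is a doubling, and the level of one probe cannot be set against that of another. A probe was called when its limma p, adjusted by Benjamini-Hochberg over all 22968 probes tested, was under 0.05. Between 53.7% and 63.0% of spots on an array stood well above background in Cy3, and no spot was saturated. All 13 S100 probes stood well above background in Cy3 on all 8 arrays, and all were tested. In the Cy5 reference the S100a9 probe did so on 1 array, and the other 12 on all 8. Of the mammary epithelial markers Epcam, Cdh1, Krt8, Krt18, Krt19, Krt7 and Cldn7 stood above background on all 8 arrays, and Cldn4 did not. Epcam and Cldn7 stood far below the reference, with means of −5.07 and −3.42 in R175Q cells and −4.81 and −3.32 in wild-type cells. Another Cldn7 probe stood above background on 0 arrays.

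Of the 13 probes, 2 were higher in R175Q cells, both for S100a4, and 4 were lower, 1 for S100a6, 1 for S100a14 and 2 for S100a16. The other 7 did not pass. Over all probes tested 18.5% were called, 8.93% higher and 9.61% lower. The groups did not overlap for 7 of the 13 probes, against 23.3% of all probes tested. With slide as a fixed block 1 S100 probe was higher and 6 lower, against 6.43% and 7.2% of all probes (13.6% in either direction). With the background level fitted to all spots, not to the negative control spots, limma called 0 higher and 3 lower (2 and 6 at an unadjusted p under 0.05), against 2.1% and 1.86% of all probes (3.96% in either direction). The median difference over the 13 was −0.18, and −0.016 over all probes tested. Since 3 genes have a pair of probes each, the 13 are not independent.

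**Figure D1:**
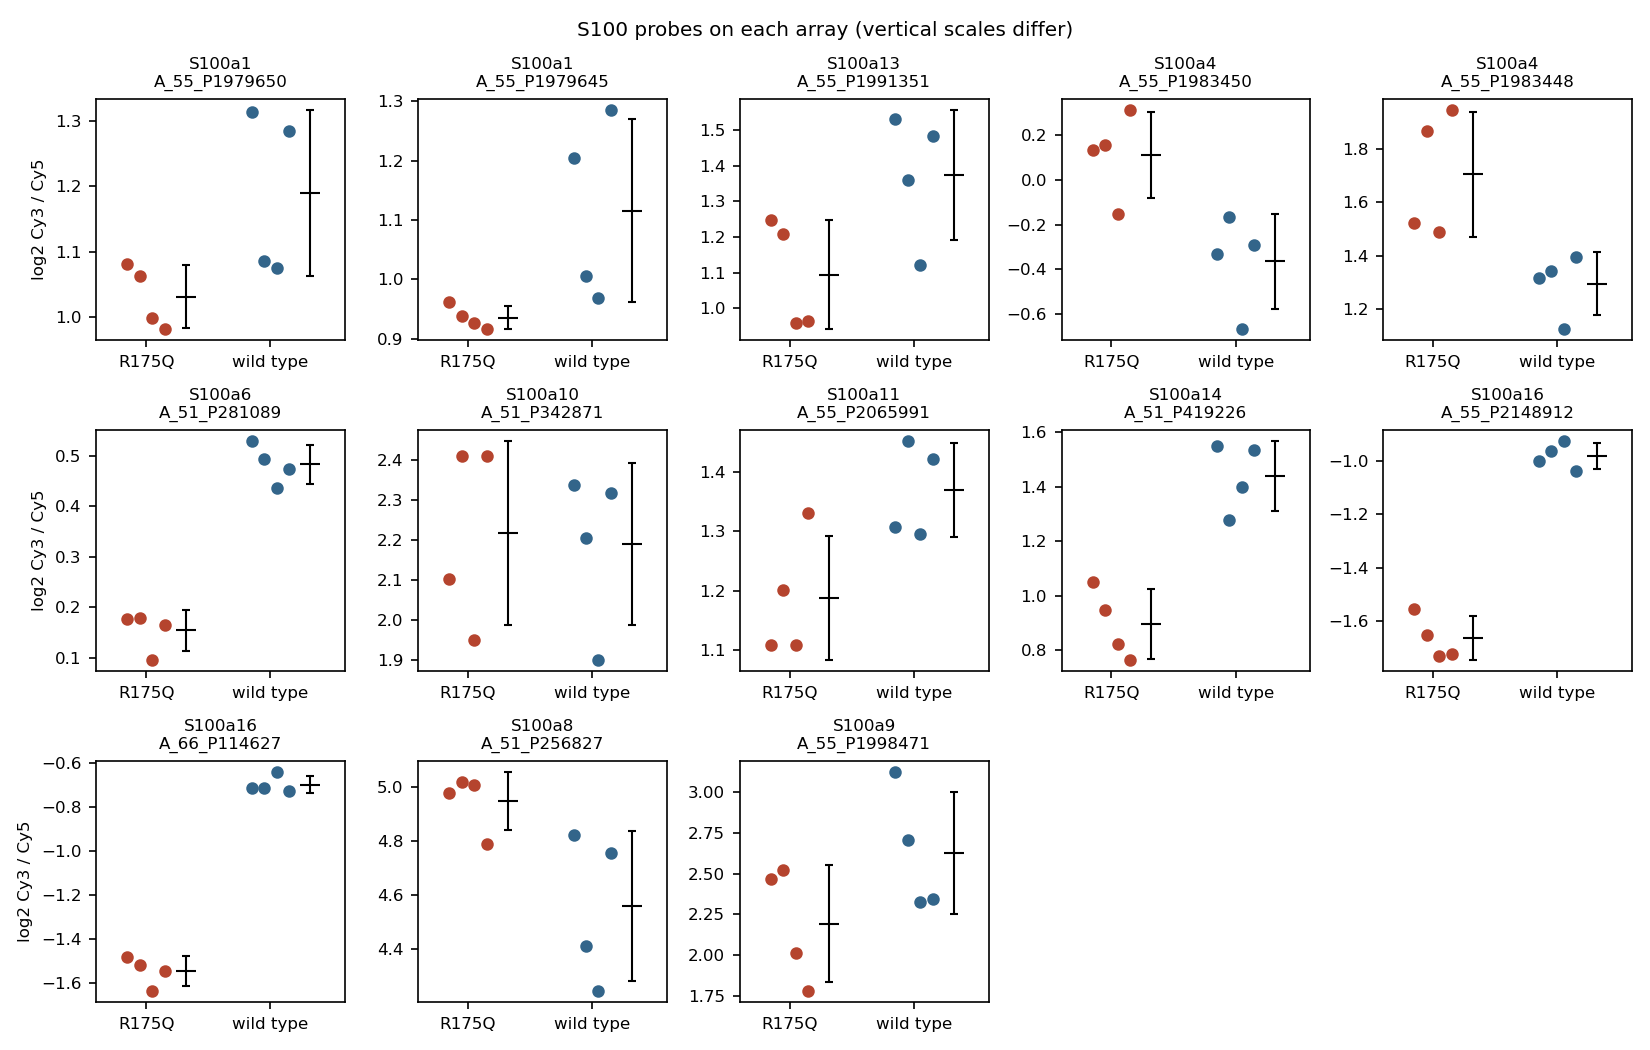
Log2 of Cy3 over Cy5 on the vertical axis for each S100 probe, with 1 point per array, R175Q at left and wild type at right; the bar beside each group is its mean ± SD (n = 4). The R175Q points lie wholly below the wild-type points for S100a16, S100a14, S100a6 and, by a narrow margin, the S100a1 probe A_55_P1979645, which was not called. The R175Q points lie wholly above the wild-type points for both S100a4 probes, while those of S100a10 span the same range.

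The sequences show which stretch of each transcript an array spot reads. One probe of S100a1 and the probe of S100a8 hold the codons of a whole calcium-binding EF-hand loop, given in capitals, 5′ to 3′. A script looked for this pattern of codons, with the acidic and oxygen-bearing residues that hold calcium, in 39429 probes and found it in 67 of them (0.17%). The probes map on mm9 to chr3:90315191-90315250 (minus strand) for S100a1 and chr3:90473778-90473837 (plus strand) for S100a8.
S100a1 A_55_P1979645: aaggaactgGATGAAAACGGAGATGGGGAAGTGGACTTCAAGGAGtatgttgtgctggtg
S100a8 A_51_P256827: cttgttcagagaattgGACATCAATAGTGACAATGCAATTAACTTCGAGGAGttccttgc

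The probes of the genes that were called are shown next, because S100a4 and S100a16 were each read at 2 places along the transcript. The last 30 bases are printed of the first S100a4 probe (mm9 chr3:90409734-90409793, plus strand) and of the S100a6 probe (chr3:90418160-90418219, plus strand). Of the second S100a4 probe (chr3:90409908-90409967, plus strand) 30 bases are printed, with the polyadenylation signal AATAAA in capitals. Of the S100a14 probe (chr3:90332439-90332498, plus strand) and the S100a16 probes (chr3:90346529-90346588 and chr3:90346875-90346934, plus strand) the last 30 bases are printed. The letters AATAAA stood in 3 of the 13 S100 probes, those of S100a13 and the second probes of S100a1 and S100a4, and in 12.6% of all probes. Exon and untranslated boundaries were not determined here.
S100a4 A_55_P1983450: attgccatgatgtgcaatgaattctttgag
S100a4 A_55_P1983448: atgtgcacagtgctgagcaaattcAATAAA
S100a6 A_51_P281089: gtatgtcgccttcctgggggccttggcttt
S100a14 A_51_P419226: ctgcatatttggtcctgaaaagggtgtctg
S100a16 A_55_P2148912: tctttccatgctttaagttgactctttctt
S100a16 A_66_P114627: agtggcagtaccagaattagccgcttcttt

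S100a16, a widely expressed S100 protein, was lower in R175Q cells by both of its probes. The probe A_66_P114627 read −1.48, −1.52, −1.64 and −1.54 in R175Q replicates 1 to 4, against −0.71, −0.71, −0.64 and −0.72 in wild-type replicates 1 to 4. Every R175Q array lay below every wild-type array, and the gap between the groups was several times the range within either. The difference was −0.85 ± 0.06 (SE; limma, adjusted p = 8.59e-06), a level 0.556 times that of wild type. The probe A_55_P2148912, which starts 346 bases away, read −1.55, −1.65, −1.73 and −1.72 in R175Q cells, against −1.002, −0.97, −0.93 and −1.04 in wild-type cells. It differed by −0.68 ± 0.06 (limma, adjusted p = 4.94e-05), again with no overlap between the groups. Across the 8 arrays the 2 probes had a Pearson's r of 0.995, given as a description, since they share every array and its reference channel. Within slides 2, 3 and 4, which held both groups, the first probe differed by −0.80, −0.96 and −0.82 and the second by −0.65, −0.78 and −0.68. With slide as a fixed block the differences were −0.87 (limma, adjusted p = 0.000745) and −0.71 (limma, adjusted p = 0.00112).

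S100a14, an S100 protein of epithelia, was also lower in R175Q cells. Its probe read 1.05, 0.95, 0.82 and 0.76 in R175Q replicates 1 to 4, against 1.55, 1.28, 1.40 and 1.53 in wild-type replicates 1 to 4. All 4 R175Q arrays lay below the lowest wild-type array. The difference was −0.54 ± 0.09 (limma, adjusted p = 0.0017), at −0.60, −0.52 and −0.77 within slides 2, 3 and 4 and −0.62 with slide as a block (limma, adjusted p = 0.00346). The spot was dim, with a Cy3 intensity above its local background of 259 to 360 in R175Q cells and 390 to 533 in wild-type cells, while the negative control spots had array medians of 13.1 to 22.7. With the background level fitted to all spots in place of these controls the difference was −0.23 (limma, adjusted p = 0.495). Some mammary epithelial markers were lower as well. Of 8 marker probes tested 4 were lower in R175Q cells and 0 higher, against 9.61% lower and 8.93% higher over all probes. These 4 were Krt7, at −1.89, Krt19, at −0.40, and both probes of Krt8, at −0.31 and −0.21. Epcam, Krt18, Cldn7 and Cdh1 did not pass, Cdh1 being at −0.00040 (limma, adjusted p = 0.998). With the background fitted to all spots 2 were lower, Krt7 and Krt19. With slide as a fixed block 2 were lower, Krt7 and the Krt8 probe at −0.21. The list's summed normalised Cy3 intensity ran from 564619 to 620809 in R175Q cells and from 693500 to 802347 in wild-type cells. The part of these markers in the S100a14 and S100a16 differences was not tested. In samples of many cells, fewer cells of a type and less RNA per cell cannot be told apart.

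S100a6, or calcyclin, which binds the calcyclin-binding protein and annexins, was lower by a small and regular amount. It read 0.18, 0.18, 0.095 and 0.16 in R175Q replicates 1 to 4, against 0.53, 0.49, 0.44 and 0.47 in wild-type replicates 1 to 4. The groups did not overlap, and each had an SD of 0.04. The difference was −0.33 ± 0.05 (limma, adjusted p = 0.00181). It was −0.35, −0.37 and −0.31 within slides 2, 3 and 4, and −0.35 with slide as a block (limma, adjusted p = 0.0133). The spot was among the brightest, at percentile 99.97 to 99.99 of all probes in Cy3. The spread was wider without loess. With median centring the difference was −0.39 ± 0.09 (limma, adjusted p = 0.0106), and with Cy3 alone −0.27 ± 0.07 (limma, adjusted p = 0.0293).

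S100a4, or metastasin, which binds non-muscle myosin heavy chain and is known for promoting cell motility, was the member gene called higher. Its probe A_55_P1983448 read 1.52, 1.87, 1.49 and 1.94 in R175Q replicates 1 to 4, against 1.32, 1.34, 1.13 and 1.40 in wild-type replicates 1 to 4. The R175Q arrays lay above the wild-type arrays, but replicates 1 and 3 stood close to them. The difference was 0.41 ± 0.11 (limma, adjusted p = 0.0303). The probe A_55_P1983450 read 0.14, 0.16, −0.15 and 0.31 in R175Q cells, against −0.33, −0.17, −0.67 and −0.29 in wild-type cells. It differed by 0.48 ± 0.12 (limma, adjusted p = 0.022). The lowest R175Q array, replicate 3, and the highest wild-type array, replicate 2, were nearly level on this probe. The 2 probes, 174 bases apart, had a Pearson's r of 0.921 over the 8 arrays.

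Each S100a4 probe passed in 17 of 27 alternative fits and was higher in R175Q cells in all 27. Among the 27, quantile normalization of brightness leaves the ratios unchanged, so it could only repeat the main fit. With the background fitted to all spots the differences were 0.40 and 0.48, close to those above, but both probes missed the threshold (limma, adjusted p = 0.124 and 0.09). Both also missed it in the fits that left out R175Q replicate 2 (0.0854 and 0.0574) or R175Q replicate 4 (0.0743 and 0.0614). With the Cy3 channel alone, which leaves out the reference, the differences were 0.19 and 0.21 (limma, adjusted p = 0.331 and 0.281). A_55_P1983448 also missed it without wild-type replicates 1, 2 or 3 (limma, adjusted p = 0.0642, 0.0545 and 0.0604), and A_55_P1983450 without R175Q replicate 1 (limma, adjusted p = 0.0548). With slide as a fixed block they differed by 0.43 and 0.44 (limma, adjusted p = 0.0263 and 0.0762), and within slides 2, 3 and 4 by 0.55, 0.25 and 0.55, and by 0.49, 0.27 and 0.61. Some markers of fibroblasts and pericytes, cells in which S100a4 is also known to be expressed, were higher as well. Of 8 tested 4 were higher in R175Q cells and 0 lower, against 8.93% higher over all probes. These were Pdgfrb, at 1.19, Dcn, at 0.73, Col1a2, at 0.59, and Col3a1, at 0.39. Dcn, Col1a2 and Col3a1 stood far below the reference in both groups, with group means of log2 Cy3 over Cy5 from −8.44 to −7.14. The list's summed normalised Cy3 intensity was 4503 to 5262 in R175Q cells and 3434 to 3815 in wild-type cells. Lum and Fap did not stand above background on any array. Col1a1, Pdgfra, Thy1 and Acta2 did not pass. With the background fitted to all spots limma called none of these markers (1 higher at an unadjusted p under 0.05), and Dcn turned to −0.042 and Col3a1 to −0.28. Of 4 endothelial marker probes tested 2 were higher and 0 lower, against 8.93% higher and 9.61% lower over all probes. Both were for Vwf, at 0.85 and 0.51 (limma, adjusted p = 0.000284 and 0.0317). With the background fitted to all spots they did not pass, at 0.23 and 0.34 (limma, adjusted p = 0.476 and 0.343). The second also missed the threshold with slide as a fixed block (limma, adjusted p = 0.0554). Pecam1 and Kdr did not pass, at −0.14 and −0.049, and Cdh5, Tek and Tie1 stood above background on no array. The summed normalised Cy3 intensity of the endothelial list was 1158 to 1249 in R175Q cells and 997 to 1090 in wild-type cells. The part of these markers in the S100a4 difference was not tested.

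**Figure D2:**
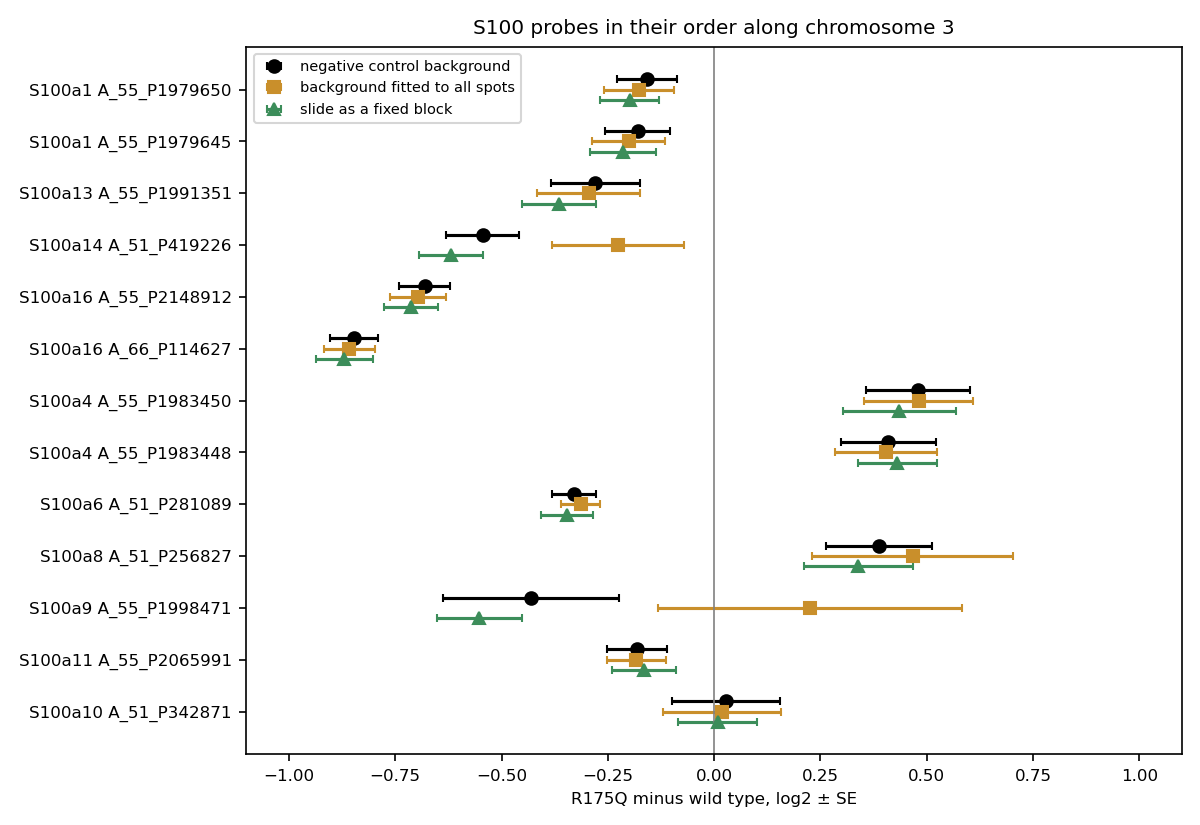
Difference of each probe, R175Q minus wild type in log2 with its SE (n = 4 each), in the order of the probes along chromosome 3, under the negative control background (circles), the background fitted to all spots (squares) and slide as a fixed block (triangles). S100a16 lies between −0.68 and −0.87 under all 3, whereas S100a9 changes sign and S100a14 shrinks to −0.23 under the background fitted to all spots.

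S100a8 and S100a9, whose products pair as calprotectin, a protein of neutrophils that also serves as a ligand of Tlr4 and Ager, did not pass. S100a8 read 4.98, 5.02, 5.01 and 4.79 in R175Q replicates 1 to 4, against 4.82, 4.41, 4.24 and 4.76 in wild-type replicates 1 to 4. The lowest R175Q array lay just below the highest wild-type array, so the groups overlapped. The difference was 0.39 ± 0.12 (limma, adjusted p = 0.0565), at 0.19, 0.68 and 0.032 within slides 2, 3 and 4. S100a8 was higher in R175Q cells in all 27 alternative fits and passed in 8, among them scaling between arrays, at 0.47 (limma, adjusted p = 0.0085), the deposited table, at 0.45 (limma, adjusted p = 0.0211), and Cy3 alone, at 0.41 (limma, adjusted p = 0.0332). It did not pass with slide as a fixed block, at 0.34 (limma, adjusted p = 0.132).

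S100a9 read 2.47, 2.52, 2.01 and 1.78 in R175Q replicates 1 to 4, against 3.12, 2.71, 2.33 and 2.35 in wild-type replicates 1 to 4. The groups overlapped, and R175Q replicates 1 and 2 lay above wild-type replicates 3 and 4. The difference was −0.43 ± 0.21 (limma, adjusted p = 0.192). Within slides 2, 3 and 4 it was −0.60, −0.50 and −0.57, and with slide as a fixed block −0.55 (limma, adjusted p = 0.0143). The spot was dim, at 115 to 200 in Cy3 above its local background in R175Q cells and 144 to 274 in wild-type cells. The sign turned with the background fitted to all spots, to 0.23 (limma, adjusted p = 0.752). Of 13 marker probes of neutrophils and other myeloid cells tested, 0 were called in either direction by limma, with 2 higher and 2 lower at an unadjusted p under 0.05. The neutrophil genes Mpo, Ngp and Ltf stood above background on no array. Camp and Cxcr2 did so on at most 1 array. Of the list's 15 genes, 9 stood above background on all 8 arrays, among them Ly6g, Elane and Csf3r. Also among the 9 were Ptprc, Lyz2 and, by 1 of its probes, Csf1r. These stood far below the reference, with group means of log2 Cy3 over Cy5 from −6.40 to −4.23. That list's summed normalised Cy3 intensity was 77400 to 93432 in R175Q cells and 71895 to 91163 in wild-type cells.

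Sequence upstream of the genes could be read for 8 of the 10 members, from RefSeq on GRCm38.p6. Of 250 bases before each start, TATAAA on either strand was present for 2 of these 8 genes, S100a4 and S100a8, and in 12.4% of all 32851 windows of the same length. The TATAAA element binds the general transcription machinery near many gene starts. The last 60 bases before the start are shown, with TATAAA in capitals, for S100a4 (chr3:90603710-90603769, plus strand) and S100a8 (chr3:90669011-90669070, plus strand). The AP-1 letters TGANTCA were present before S100a11 and before 1 of the 2 starts of S100a16, and in 6.75% of all windows. These matches describe the letters in the windows and no more.
S100a4 upstream: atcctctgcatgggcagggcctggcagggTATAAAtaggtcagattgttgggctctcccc
S100a8 upstream: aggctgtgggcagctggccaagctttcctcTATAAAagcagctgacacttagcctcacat

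S100a1, known for its work on calcium handling in muscle, and S100a13, which takes part in the release of Fgf1 from cells, lie next to each other and did not pass. The S100a1 probe A_55_P1979645 read 0.96, 0.94, 0.93 and 0.92 in R175Q replicates 1 to 4, against 1.20, 1.00, 0.97 and 1.29 in wild-type replicates 1 to 4. The R175Q arrays were close to each other and all below the lowest wild-type array, while wild-type replicates 1 and 4 stood above the other pair. The difference was −0.18 ± 0.08 (limma, adjusted p = 0.14). The second S100a1 probe read 1.08, 1.06, 1.00 and 0.98 in R175Q cells, against 1.31, 1.09, 1.07 and 1.28 in wild-type cells, and differed by −0.16 ± 0.07 (limma, adjusted p = 0.161). Its groups overlapped by a narrow margin, and the 2 probes had a Pearson's r of 0.960. Within slides 2, 3 and 4 the first probe differed by −0.27, −0.061 and −0.37 and the second by −0.25, −0.081 and −0.30.

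S100a13 read 1.25, 1.21, 0.96 and 0.96 in R175Q replicates 1 to 4, against 1.53, 1.36, 1.12 and 1.48 in wild-type replicates 1 to 4. The wild-type array of replicate 3 lay below R175Q replicates 1 and 2. The difference was −0.28 ± 0.10 (limma, adjusted p = 0.0951), and −0.37 with slide as a fixed block (limma, adjusted p = 0.0361). Without wild-type replicate 3 it was −0.36 (limma, adjusted p = 0.0199). Within slides 2, 3 and 4 it was −0.32, −0.28 and −0.52.

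S100a10 and S100a11 are the members best known as annexin partners, S100a10 of Anxa2 and S100a11 of Anxa1. S100a10 read 2.10, 2.41, 1.95 and 2.41 in R175Q replicates 1 to 4, against 2.34, 2.20, 1.90 and 2.32 in wild-type replicates 1 to 4. The groups covered the same range. The difference was 0.028 ± 0.13 (limma, adjusted p = 0.913), with a 95% interval from −0.26 to 0.31, and it was 0.070, −0.10 and 0.093 within slides 2, 3 and 4. S100a11 read 1.11, 1.20, 1.11 and 1.33 in R175Q cells, against 1.31, 1.45, 1.30 and 1.42 in wild-type cells. Only R175Q replicate 4 reached the wild-type range, and the difference was −0.18 ± 0.07 (limma, adjusted p = 0.104). It was −0.11, −0.26 and −0.091 within slides 2, 3 and 4. The S100a11 probe is annotated in the scanner files with 2 model transcripts besides the S100a11 transcript, so its value could include signal from them.

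**Figure D3:**
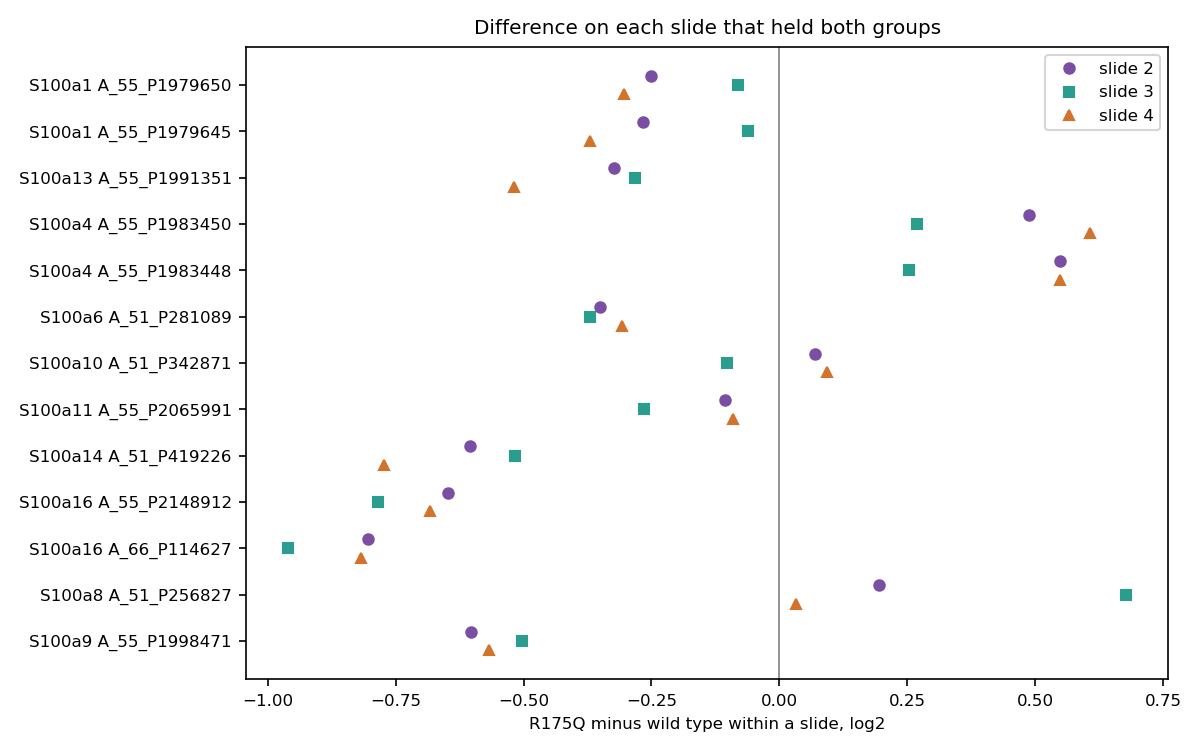
Difference of each probe within each slide that held both groups, R175Q minus wild type in log2; each point is 1 R175Q array less 1 wild-type array on slides 2 and 4, and less the mean of 2 on slide 3. S100a16, S100a14, S100a6, S100a13, S100a1, S100a9 and S100a11 were below 0 on all 3 slides, both S100a4 probes and S100a8 were above 0 on all 3, and S100a10 was below 0 on slide 3 alone.

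Slide 1 held R175Q replicate 1 alone and adds nothing to these values. Signs within slides were those of the pooled difference for 13 of 13 probes on slide 2, 12 of 13 on slide 3, and 13 of 13 on slide 4. The exception was S100a10. The same arrays make up the pooled difference, so agreement in sign is partly built in and is no separate check.

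For the 2 members of lowest p the patterns most like theirs over the 8 arrays were sought by Pearson's r among the probes of 14874 other genes. For S100a16 these were Slco2a1 (r = 0.999), Rfk (r = 0.999) and Nbeal2 (r = 0.996), which differed by −0.63, −0.30 and −0.72. For S100a14 they were D630033O11Rik (r = 0.996), Cideb (r = 0.994) and Gm5296 (r = 0.994), at −0.54, −0.41 and −0.27. These r are over 8 points that share the reference channel and the difference between the groups, and they were picked as the highest of many.

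Other genes of the S100 family, fused S100 genes and S100pbp, which codes for a binding protein and not for an S100 protein, made a list of 14, of which 6 stood above background on no array. Of 11 probes tested, 3 of them for S100pbp and none of those called, 1 was higher and 5 lower in R175Q cells, against 8.93% and 9.61% of all probes, with a median difference of −0.25 against −0.016 over all probes. S100a7a, the mouse relative of psoriasin, read 1.85, 1.85, 1.65 and 1.66 in R175Q replicates 1 to 4, against 3.18, 2.96, 3.12 and 3.35 in wild-type replicates 1 to 4. It differed by −1.40 ± 0.09 (limma, adjusted p = 6.96e-06). S100b, best known from glia, read 2.97, 3.105, 2.84 and 2.84 in R175Q cells, against 2.00, 1.92, 2.05 and 2.01 in wild-type cells, and differed by 0.94 ± 0.07 (limma, adjusted p = 2.06e-05). S100g, which codes for the calcium carrier calbindin-D9k, differed by −0.87 ± 0.15 (limma, adjusted p = 0.00326) and Tchh, trichohyalin of hair follicles, by −0.87 ± 0.12 (limma, adjusted p = 0.00068). The groups did not overlap for any of these 4 probes. The Tchh probe stood well above background in Cy3 on 6 of the 8 arrays, and the other 3 probes on all 8. With the background fitted to all spots limma called none of the list (1 higher and 1 lower at an unadjusted p under 0.05). S100a7a was then at −0.52 (limma, adjusted p = 0.417) and S100b at 1.15 (limma, adjusted p = 0.155). S100g was at −0.38 (limma, adjusted p = 0.664) and Tchh at −0.056 (limma, adjusted p = 0.821).

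Annexins, calcium-dependent membrane-binding proteins, were called in both directions. Of 17 probes of 12 genes, 3 were higher, 4 lower and 10 did not pass, against 8.93% higher and 9.61% lower over all probes, and the median difference was 0.015. Only 1 was higher and 1 lower with the background fitted to all spots. Anxa10 read 3.78, 4.27, 4.04 and 3.64 in R175Q replicates 1 to 4, against 5.73, 5.06, 5.29 and 5.39 in wild-type replicates 1 to 4. It differed by −1.43 ± 0.16 (limma, adjusted p = 0.000227), and by −0.66 with the background fitted to all spots (limma, adjusted p = 0.57). Anxa1, the partner of S100a11, differed by −0.42 ± 0.10 (limma, adjusted p = 0.0133), Anxa6 by 0.43 ± 0.07 (limma, adjusted p = 0.00155) and Anxa8 by 0.27 ± 0.07 (limma, adjusted p = 0.0268). Anxa8 did not pass with the background fitted to all spots (limma, adjusted p = 0.0843) or with slide as a fixed block (limma, adjusted p = 0.0629). Anxa2, the partner of S100a10, differed by 0.10 ± 0.13 (limma, adjusted p = 0.639).

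Among 30 genes for receptors, partners and targets of S100 proteins, 29 probes were tested. Of these 2 were higher, 6 lower and 21 did not pass, against 8.93% higher and 9.61% lower over all probes. The share called higher was not above that of all probes, while the share called lower was above it. The 6 lower probes were of 4 genes, with 2 probes each for Ahnak and Fgf1. The median difference was −0.016, the same to 2 digits as over all probes. Sugt1, a co-chaperone that binds S100a6, read 0.44, 0.49, 0.50 and 0.48 in R175Q replicates 1 to 4, against 0.0054, 0.0087, 0.069 and 0.12 in wild-type replicates 1 to 4. It differed by 0.43 ± 0.05 (limma, adjusted p = 0.000397), against −0.33 for S100a6 itself. Cacybp, which codes for the calcyclin-binding protein, did not pass, at 0.018 (limma, adjusted p = 0.913). Fgf1, the growth factor released with S100a13, differed by −0.66 ± 0.10 (limma, adjusted p = 0.00161), the adhesion molecule Alcam by −0.61 ± 0.10 (limma, adjusted p = 0.00249), and Plau, urokinase, by 0.46 ± 0.09 (limma, adjusted p = 0.0067). With the background fitted to all spots Fgf1 and Plau did not pass, at −0.38 (limma, adjusted p = 0.459) and 0.0023 (limma, adjusted p = 0.997). The 2 probes of the myosin heavy chain gene Myh9 did not pass, at −0.13 and 0.075 (limma, adjusted p = 0.374 and 0.515). Nor did the Tlr4 probe that was tested, at 0.14 (limma, adjusted p = 0.163). The receptor Ager stood above background on 1 array and was not tested.

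**Figure D4:**
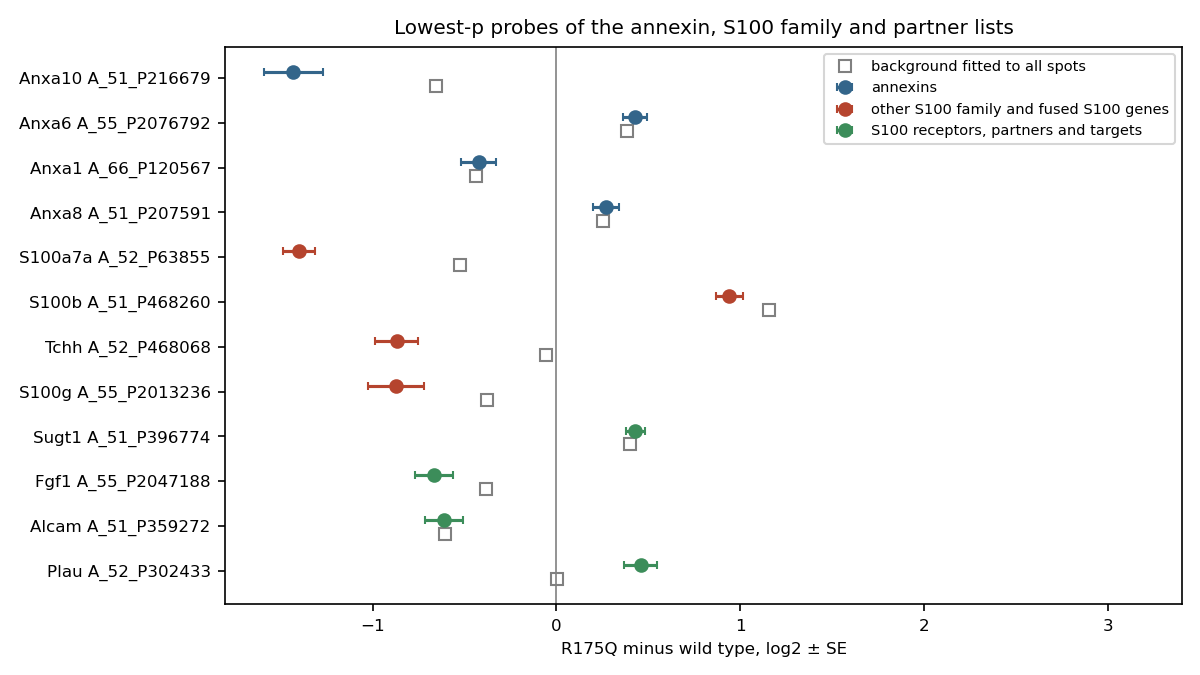
Difference, R175Q minus wild type in log2 with its SE (n = 4 each), for the 4 probes of lowest p in each of 3 lists of related genes; open squares give the same difference with the background fitted to all spots. Sugt1, Anxa6, Anxa1, Alcam and Anxa8 differed by nearly the same amount under the 2 backgrounds, though Anxa8 missed the threshold under the second, while Anxa10, S100a7a, Tchh, S100g, Fgf1 and Plau moved towards 0.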

How the data were processed

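RNA from 4 R175Q and 4 wild-type samples was hybridised to 2-colour Agilent arrays on 4 slides. Per the labels' protocols, RNA (1 to 2.5 ng per sample) was linearly amplified in 2 rounds. The scanner software, per the file headers, was Agilent Feature Extraction 9.5.3.1, and it gave mean spot intensity, median local background intensity, quality flags and a log10 ratio of Cy5 over Cy3. The table of log2 values deposited by the authors runs as Cy3 over Cy5, judged from its values, with scaling and centring unknown (column medians 0.0524 to 0.0617). The members and lists, and the tests, were chosen with earlier results of these data known.

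Local background was subtracted, then normexp used the mean and SD of the 153 negative control spots of each array with an offset of 50, followed by loess within arrays with control spots at weight 0, in limma 3.58.1 (R 4.3.3). The Cy3 background that normexp fitted to all spots was −690 to −0.369, below the negative controls, and served as an alternative. Spots marked as outliers were left missing, and spots of a probe were averaged; each member had 1 spot and no missing value. A probe was tested if it was well above background on 4 or more arrays in Cy3, with lmFit and eBayes. A list's summed normalised Cy3 intensity was taken over all its probes, after background correction, loess and quantile normalization of brightness. It includes the offset of 50 for each probe and follows the log ratios, so it is not a separate measurement from the raw channel. Named genes were all members, the 3 most alike genes of the 2 members of lowest p, and up to 4 genes of lowest p in each list. The procedure was tested on simulated data. Alternatives are given in the closing section.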

Additional observations from a re-analysis of the deposited data

Results flagged for a closer look

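Among 26 sets of 4 values, 1 per S100 probe and group, 1 held a value far from the rest by Dixon's test, which chance gives in about 1 of 20 such sets. It was wild-type replicate 3 on the S100a16 probe A_66_P114627, at −0.64, where the other wild-type arrays read −0.72 to −0.71. The gap was 0.849 of the group's range, and the value lay farther from the R175Q arrays than the others did.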

How the results depend on the processing

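The number of arrays limits the precision. In 27 alternative fits the 2 S100a16 probes and S100a6 each passed in 26 and S100a14 in 25, always lower in R175Q, and each S100a4 probe passed in 17, always higher. Quantile normalization of brightness, among the 27, leaves the ratios unchanged. It repeats the main fit and adds to each of these counts without testing it. With the background fitted to all spots, 483 probes were higher and 427 lower (against 2050 and 2207), 0 S100 probes higher and 3 lower, 1 annexin probe higher and 1 lower, 0 and 0 of the other S100 family, and 1 and 1 of the receptors, partners and targets; adding slide as a fixed block gave 0 higher and 1 lower over all probes and 0 and 0 S100 probes. arrayWeights gave 3610 and 4587, with 8 S100 probes lower. S100 probes higher were 0 with the scanner's processed signals, 1 with Cy3 alone (S100a8, with both S100a4 probes lost), 1 with slide and 1 with scan day as a fixed block (S100a4 A_55_P1983448), and 1 with the mean of a gene's probes, where the S100a4 pair became 1 value and passed at 0.44. Median centring gave 2169 higher and 1523 lower. S100a9 turned to 0.23 with the background fitted to all spots and 0.33 with the slide block added. S100a10 turned to −0.0046 with median centring, −0.020 with Cy3 alone, −0.039 with arrayWeights and −0.00043 with the slide block and background fitted to all spots. The cause of these turns was not tested.

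Leaving out 1 array gave 1460 to 2527 higher and 1451 (without wild-type replicate 1) to 2689 lower, 0 to 3 S100 probes higher and 4 to 6 lower, with S100a10 at −0.069 to 0.12. S100 probes higher were 0 without R175Q replicate 2 or 4, and 1 without R175Q replicate 1 or wild-type replicate 2 or 3. S100a10 was −0.036 without R175Q replicate 2 or 4 and −0.069 without wild-type replicate 3. S100a1 A_55_P1979645 passed without wild-type replicate 3, at −0.23. S100a8 passed in 8 of the 27 fits, among them without wild-type replicate 1 or 4, at 0.48 and 0.45. Deviations of same-numbered samples correlated at 0.299, 0.0140, 0.552 and 0.119, so the numbers were not taken as pairs; a replicate block gave 2482 higher and 2603 lower, with 2 and 6 S100 probes, adding S100a9 (−0.43; limma, adjusted p = 0.0116) and S100a13 (−0.28; limma, adjusted p = 0.0342) to those lower.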
